A study of Arabidopsis thaliana with 6 samples.

Results

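Plastid ribosomal proteins encoded in the nucleus were examined in leaves of the Arabidopsis thaliana ka120 mutant and of the wild type (WT, accession Col-0). The list held 30 nuclear loci, 11 for proteins of the small subunit and 19 for proteins of the large subunit. A locus counted as measured when the platform annotation gave it a probe set with no other gene on it. This held for 8 of the 30 loci, 3 of the small and 5 of the large subunit, among 13356 genes measured in all. The other 22 loci are not analysed here, so statements about the list cover the 8 measured loci. None of the 8 had more than 1 probe set of its own.

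RNA from 3 ka120 and 3 WT samples was hybridized to 3-prime expression arrays, 1 array per sample, as 3 biological replicates per genotype. The plants received no treatment and grew on soil at 22 °C in days of 12 h light followed by 12 h of darkness. The records give 2 ages and tissues, whole rosettes at 3 weeks in the series text and mature leaf after 4 weeks in the sample records. KA120 (AT3G08960) is a karyopherin of the importin-beta type, a class of receptors that carry proteins through nuclear pores. Neither the kind of mutation nor the number of independent mutant lines is stated in the records used here.

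The plastid ribosome is of bacterial type and makes the proteins encoded in the plastid genome, among them core subunits of both photosystems and the large subunit of Rubisco. Its proteins come from 2 genomes: some are encoded in the plastid, while the others are encoded in the nucleus, made in the cytosol and imported. Leaf cells with active chloroplasts carry high levels of these nuclear transcripts, and loss of many of the proteins is known to arrest embryos or to bleach the plant. The protein names used below are the customary Arabidopsis ones. The tables behind the values list the 8 loci by locus number only.

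All 8 measured genes had a lower mean in ka120 than in WT, and 6 of them fell past an adjusted p of 0.05 (limma, Benjamini-Hochberg over all probe sets), while 0 rose. Over all genes tested, 15.5% were called lower and 17.5% higher in ka120. Among the 1190 genes at least as bright as the dimmest measured member, 36% were called lower. The median difference of the 8 genes was -0.43 on the log2 scale, ka120 minus WT, against -0.03 over all genes tested and -0.07 over those bright genes. In 7 of the 8 genes the 3 ka120 arrays all lay below the 3 WT arrays, a separation seen in 21.8% of all genes and in 42.3% of the bright ones. The list was chosen with earlier results of these data known, so its counts beside these shares are a description, not a test. The size of these falls depended on how the arrays were scaled, and 1 gene, AT5G24490, kept its call under every scaling tried. Some of these scalings give adjusted p-values that are too small, as set out below.

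**Figure D1:**
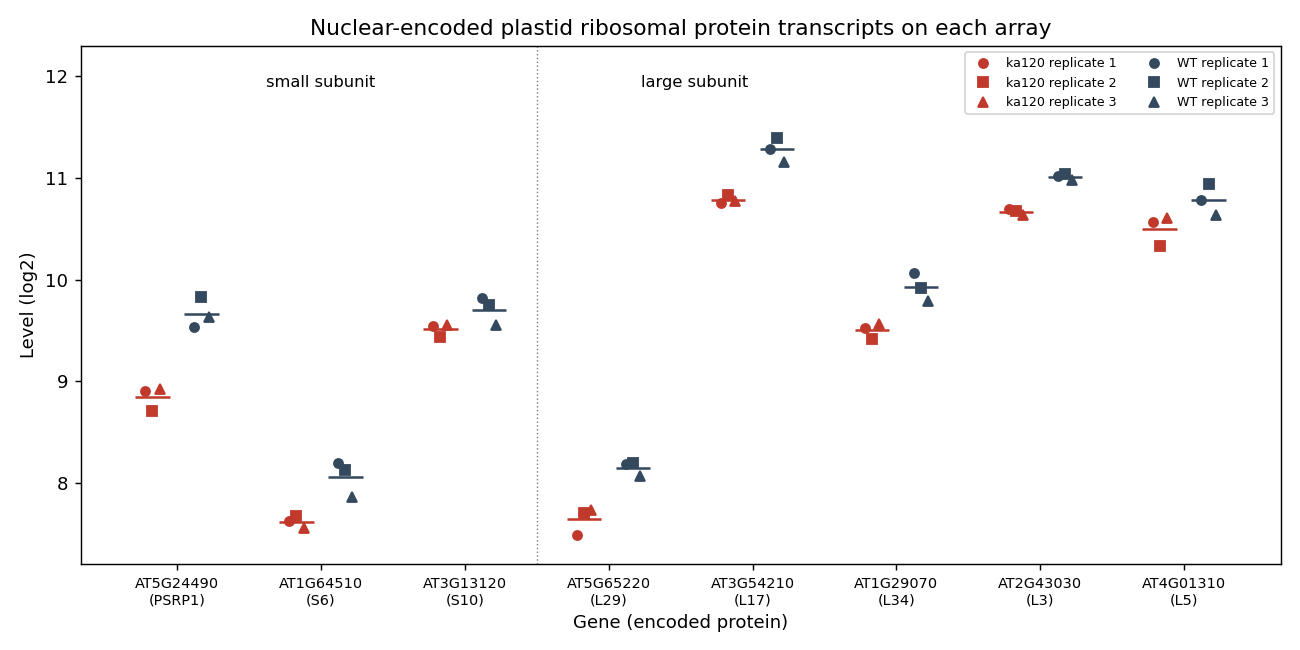
Log2 level of each measured gene on each of the 6 arrays, with ka120 (red) left of WT (dark) and the horizontal bars at the means of 3 arrays. The ka120 points lie below the WT points in each gene except AT3G13120, where 1 ka120 array slightly exceeds WT replicate 3, and the widest gap is that of AT5G24490.

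In the small subunit, AT5G24490 changed most. It encodes PSRP1, a protein related to bacterial ribosome hibernation factors, whose spinach counterpart was found bound at the decoding region of the small subunit. Its log2 level was 8.90, 8.71 and 8.93 in ka120, against 9.53, 9.83 and 9.63 in WT. The highest ka120 array lay 0.60 below the lowest WT array. The difference was -0.82 (SE 0.11, limma adjusted p = 0.000136), or 56.7% of the WT level, with a 95% interval from 48.1% to 66.9%. Within each array, AT5G24490 lay below the mean of the other 7 measured genes, by a log2 difference of -0.62 ± 0.10 in ka120 and -0.18 ± 0.17 in WT (SD, n = 3 arrays each). Since it was singled out as the gene with the largest fall, this contrast was not tested.

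AT1G64510 encodes S6, which in bacteria binds the ribosomal RNA together with S18. Its level was 7.62, 7.68 and 7.56 in ka120 and 8.19, 8.12 and 7.86 in WT. The groups did not overlap, although WT replicate 3 lay close to the ka120 arrays. The gene fell by 0.44 on the log2 scale (SE 0.11, limma adjusted p = 0.00700), to 73.8% of the WT level. AT3G13120 encodes S10, which in bacteria sits in the head of the small subunit and also takes part in transcription antitermination. It had 9.54, 9.44 and 9.55 in ka120 and 9.82, 9.75 and 9.55 in WT. WT replicate 3 fell among the ka120 values, and the difference of -0.19 (95% interval -0.41 to 0.02) did not pass the test (limma adjusted p = 0.161).

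In the large subunit, 4 of 5 measured genes fell. AT5G65220 encodes L29, which in bacteria lies beside the exit of the peptide tunnel. It had 7.49, 7.70 and 7.73 in ka120 and 8.18, 8.20 and 8.07 in WT, a fall to 70.3% of the WT level (log2 difference -0.51, SE 0.10, limma adjusted p = 0.00192). AT3G54210 encodes L17, another protein of the tunnel exit region in bacteria. Its ka120 levels of 10.75, 10.83 and 10.77 stood against 11.28, 11.40 and 11.16 in WT, a difference of -0.50 (SE 0.09) at a limma adjusted p of 0.00158. In both genes the lowest WT array was 0.33 above the highest ka120 array.

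AT1G29070 encodes L34, a small protein of the large subunit. It had 9.52, 9.42 and 9.56 in ka120 and 10.06, 9.92 and 9.79 in WT, with no overlap, and fell to 74.6% of the WT level (log2 difference -0.42, SE 0.10, limma adjusted p = 0.00611). AT2G43030 encodes L3, which in bacteria is among the first proteins to join the large subunit and reaches towards the peptidyl transferase centre. Its levels of 10.70, 10.68 and 10.64 in ka120 and 11.02, 11.04 and 10.99 in WT had the smallest spread of the 8 genes within both genotypes (SD 0.03 each, n = 3). The difference of -0.34 (SE 0.08) passed the test at a limma adjusted p of 0.00746.

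AT4G01310 encodes L5, which binds the 5S ribosomal RNA. Its levels were 10.56, 10.33 and 10.61 in ka120 and 10.79, 10.94 and 10.63 in WT. The groups were separated by 0.02, less than the SD of 0.15 within each genotype, and the difference of -0.29 (95% interval -0.53 to -0.04) did not pass after adjustment (limma adjusted p = 0.0717). Without WT replicate 3 it passed, at -0.36 (limma adjusted p = 0.0366). With any other array left out it did not (limma adjusted p from 0.0761 to 0.230).

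The 8 genes shared the order of their arrays in part. WT replicate 3 was the lowest WT array in 7 of 8 genes, the exception being AT5G24490, where WT replicate 1 was lowest. In ka120 no array was lowest in more than 4 genes. Averaged over the 8 genes, the level was 9.39, 9.35 and 9.42 in ka120 and 9.86, 9.90 and 9.71 in WT, which is 9.39 ± 0.04 against 9.82 ± 0.10 (log2, SD, n = 3 arrays each). The spread of this average was thus wider among the WT arrays. Each gene gave a bright signal, at percentile 86.0 or higher of all probe sets in ka120 and 89.6 or higher in WT.

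**Figure D2:**
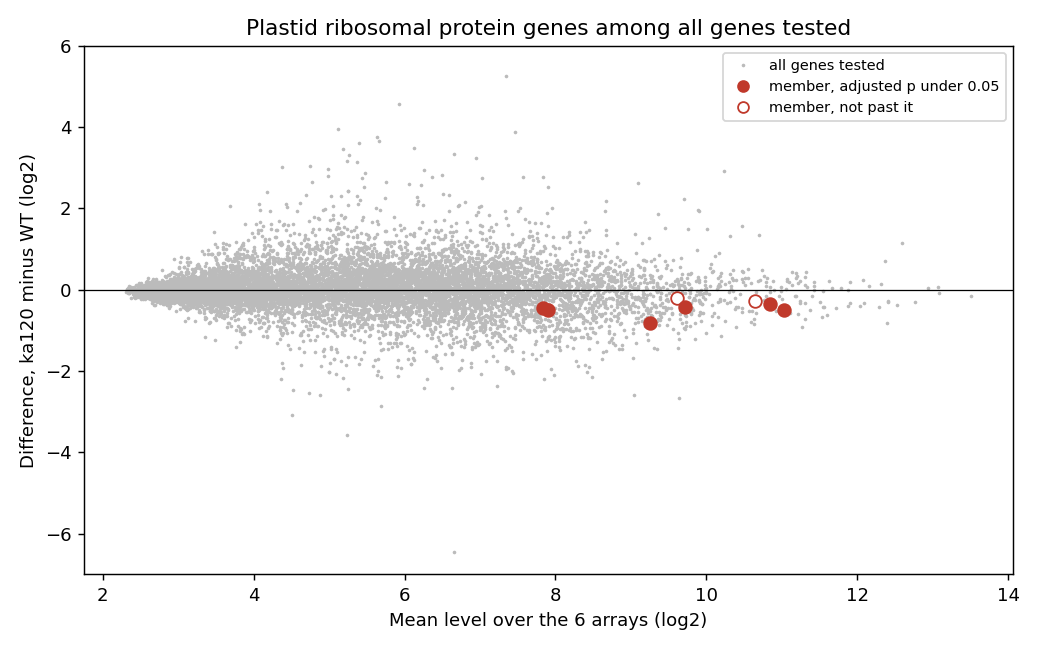
Difference between ka120 and WT (log2) against the mean level over the 6 arrays (log2) for all 13356 genes tested (grey), with the 8 measured plastid ribosomal protein genes in red, filled where the adjusted p is under 0.05. The 8 genes lie in the bright part of the range and between -0.82 and -0.19, a small difference beside the most changed genes.

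The controls added to each hybridization also differed between the genotypes. The amount for BioB, which was dimmer than all 8 ribosomal protein genes, was near the median difference of these genes. It was smaller for the brighter controls, to which most of the 8 genes were closer in level (7.84 to 11.03 over all arrays). BioB, the dimmest, averaged 7.28 ± 0.10 in ka120 and 7.72 ± 0.06 in WT, and BioC 9.02 ± 0.07 in ka120 and 9.28 ± 0.07 in WT (log2, SD, n = 3 arrays each). BioD averaged 10.94 ± 0.04 in ka120 and 11.07 ± 0.08 in WT, and Cre, the brightest, 12.75 ± 0.04 in ka120 and 12.72 ± 0.07 in WT. From BioB to Cre the differences were -0.44, -0.26, -0.13 and 0.02, ka120 minus WT, shrinking with the level of the control. Their part in the falls of the ribosomal protein genes was therefore examined through other scalings of the arrays.

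With each array centred on these controls, 1 of the 8 genes was called lower, AT5G24490 at -0.62 (limma adjusted p = 0.00043, and 6.77e-06 to 0.000874 over the 15 alternatives), where 8.42% of all genes were called lower. After removal of a control offset that varied with level, 2 were called lower, AT5G24490 at -0.56 and AT3G54210 at -0.37, where 5.53% of all genes were. The other 6 genes then ran from -0.20 to 0.035 (AT3G13120), and none passed. Centring on array medians instead called all 8 lower, at a median of -0.55, where 26.5% of all genes were called lower. Relative to the median of all genes, which moved to 0.17 and 0.40 under the 2 control-based scalings and to -0.15 after median centring, the median of the 8 genes was -0.40 as deposited, -0.40 with hybridization controls, -0.57 with the level-dependent offset, -0.40 after median centring and -0.35 under quantile normalization. Relative to the median of the 1190 bright genes it lay between -0.38 and -0.36 under the same 5 scalings. In each of them all 8 genes lay below both medians. Both centrings shift all genes of an array by the same amount and so leave these relative values as deposited. Only the level-dependent offset and quantile normalization could change them. A call of lower level in ka120 was thus held through all 5 scalings by AT5G24490 alone. Its product, PSRP1, is the protein described above as related to bacterial ribosome hibernation factors.

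**Figure D3:**
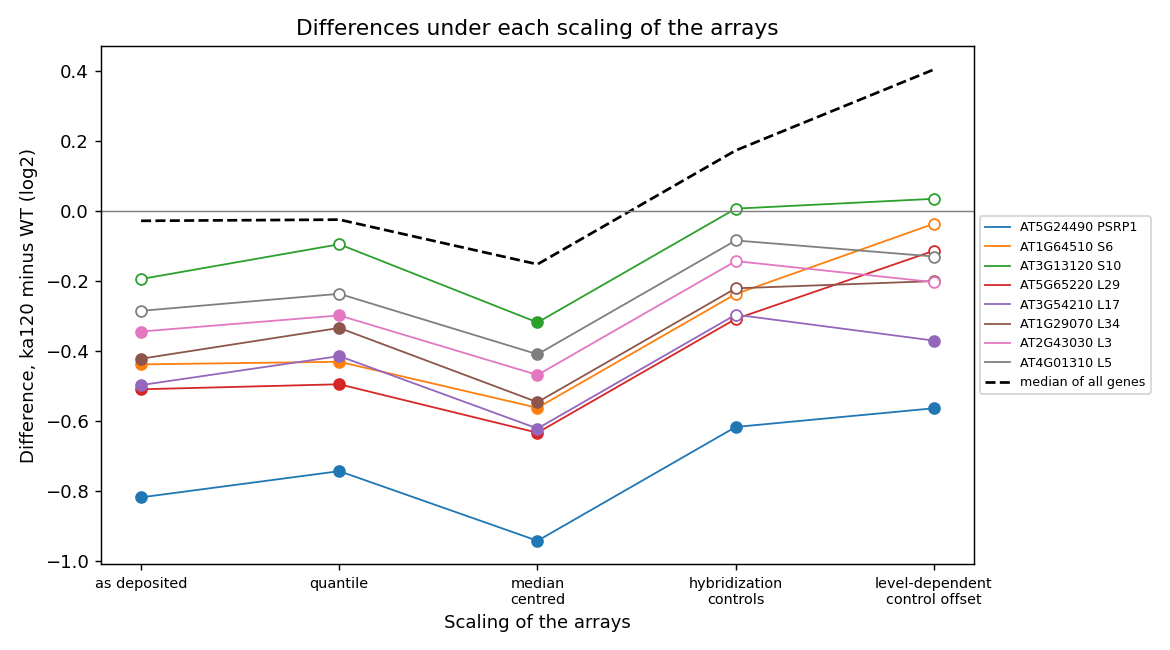
Difference between ka120 and WT (log2) of each measured gene under 5 scalings of the arrays, with filled points where the limma adjusted p is under 0.05 and the dashed line at the median of all genes. AT5G24490 stays filled throughout, and all 8 genes stay below the dashed line, which lies at 0.17 and 0.40 under the control-based scalings. Centring on medians or on hybridization controls moves the genes and the line together.

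In further lists of plastid ribosomal proteins and translation factors encoded in the nucleus, 5 of 6 measured genes fell. Over all genes tested 15.5% were called lower, and among the 1190 bright genes 36%. These lists too were chosen with earlier results of these data known. Of 11 further plastid ribosomal protein loci 2 were measured, both encoding L19, and both fell: AT4G17560 had 6.88, 6.86 and 7.07 in ka120 and 7.26, 7.46 and 7.40 in WT (log2 difference -0.44, limma adjusted p = 0.00485), and AT5G47190 differed by -0.33 (limma adjusted p = 0.0188). Neither was called under the control-based scalings, and AT5G47190 also lost its call without ka120 replicate 1, ka120 replicate 3 or WT replicate 2 (limma adjusted p = 0.0860, 0.0565 and 0.0737). Of 11 loci for plastid translation factors 4 were measured, all for initiation factors, and 3 fell. AT4G30690, one of a pair of measured genes for initiation factor 3, which in bacteria keeps the small subunit apart from the large one until initiation, had 5.58, 5.46 and 5.62 in ka120 and 7.08, 7.54 and 7.31 in WT. Its log2 difference of -1.76 (SE 0.12, limma adjusted p = 1.28e-06) was larger in size than that of any of the 8 ribosomal protein genes, and its call held under all 15 alternatives. The other gene of the pair, AT2G24060, differed by -0.33 (limma adjusted p = 0.0136) and AT4G11175, which encodes initiation factor 1, by -0.60 (limma adjusted p = 0.00266). FUG1, the plastid initiation factor 2, did not pass the test, at 0.01 with a 95% interval from -0.24 to 0.26. The AT2G24060 call was lost with either control-based scaling, under quantile normalization and without ka120 replicate 1, and that of AT4G11175 with the level-dependent offset.

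Other lists of plastid gene expression were thinly measured. RAP, needed for maturation of the plastid 16S ribosomal RNA, rose, at 8.81, 8.74 and 8.83 in ka120 against 8.21, 8.49 and 8.50 in WT (log2 difference 0.39, limma adjusted p = 0.0104). It was the 1 gene called of 2 measured ribosome assembly factors, and the call was lost after median centring (0.27, limma adjusted p = 0.0503). RH39, a helicase acting on the plastid 23S ribosomal RNA, gave 0.20 and did not pass, though it was called higher under both control-based scalings (0.40 and 0.63). Also not past the test was the plastid chaperonin subunit Cpn60beta2, at 0.03. None of the 18 listed plastid RNA polymerase partners and none of the 3 listed regulators of plastid biogenesis was measured.

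**Figure D4:**
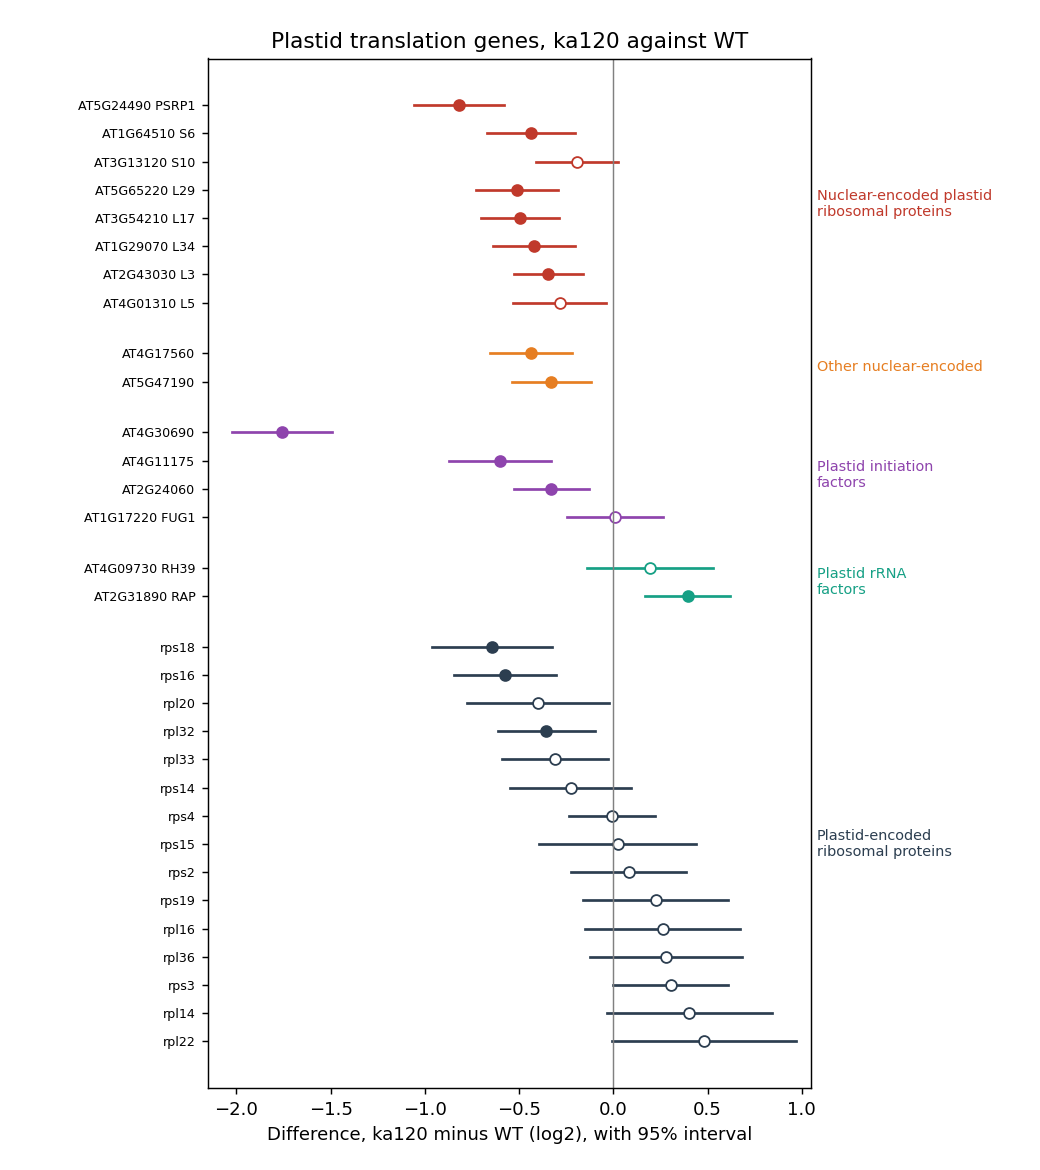
Difference between ka120 and WT (log2) with its 95% interval for the measured genes of the plastid ribosome and of plastid translation, grouped by list and filled where the limma adjusted p is under 0.05. Nuclear-encoded ribosomal protein genes lie between -0.82 and -0.19, AT4G30690 lies far lower at -1.76, and the plastid-encoded genes spread from -0.65 to 0.48.

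The ribosomal proteins encoded in the plastid itself were measured by 15 probe sets, all of those with a single rps or rpl gene of the plastid genome. Most plastid transcripts lack long poly(A) tails, and the labelling kit primes on such tails, so these signals need not follow transcript amount as those of nuclear genes do. Of the 15, 3 fell and 0 rose (limma, adjusted p), where 15.5% of all genes were called lower and 17.5% higher. Among the 1190 bright genes, a set that takes in most of the 15, 36% were called lower. The median difference of the 15 was 0.02 against -0.43 for the 8 nuclear genes. A difference between the 2 sets was not tested. On the arrays the mean of the 15 was 9.19 ± 0.05 in ka120 and 9.22 ± 0.30 in WT (log2, SD, n = 3 arrays each), so the WT arrays varied more than the genotypes differed.

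The 3 that fell were rps18, rps16 and rpl32. The S18 transcript rps18, whose product pairs with S6 in bacteria, had 7.80, 8.02 and 8.18 in ka120 and 8.35, 8.90 and 8.68 in WT (log2 difference -0.65, SE 0.14, limma adjusted p = 0.00457). The other small subunit transcript, rps16, had 6.50, 6.41 and 6.52 in ka120 and 6.79, 7.06 and 7.30 in WT, a log2 difference of -0.57 (limma adjusted p = 0.00357). The large subunit transcript rpl32 differed by -0.35 (limma adjusted p = 0.0356), a call lost under both control-based scalings, under quantile normalization, without ka120 replicate 1 and without WT replicate 2. With the level-dependent offset rps18 and rps16 lost their calls too.

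A run of plastid genes that lie beside each other and are transcribed together, rps19, rpl22, rps3, rpl16, rpl14 and rpl36, behaved alike on the arrays. Their differences were positive, between 0.22 and 0.48, and none passed the test (limma adjusted p between 0.119 and 0.371). Within ka120 the SDs of these 6 genes were between 0.015 and 0.15, and within WT between 0.31 and 0.56. WT replicate 1 was the lowest of all 6 arrays and WT replicate 3 the highest WT array in all 6 genes. For rpl22, the most different of them, the values were 11.11, 10.82 and 11.01 in ka120 and 9.92, 10.55 and 11.04 in WT. Without WT replicate 3 all 6 were called higher in ka120, as they also were under both control-based scalings, and rps3 was under quantile normalization. Over the 15 genes, 6 were called higher without WT replicate 3, 6 after centring on hybridization controls and 8 after removing the level-dependent offset, where 0 had been. In place of 3, 5 were called lower without WT replicate 1 and 5 after median centring, with rpl20 and rpl33 added both times. Array weights gave 4 lower, as did an intensity trend and robust prior, and the level-dependent offset gave 0.

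**Figure D5:**
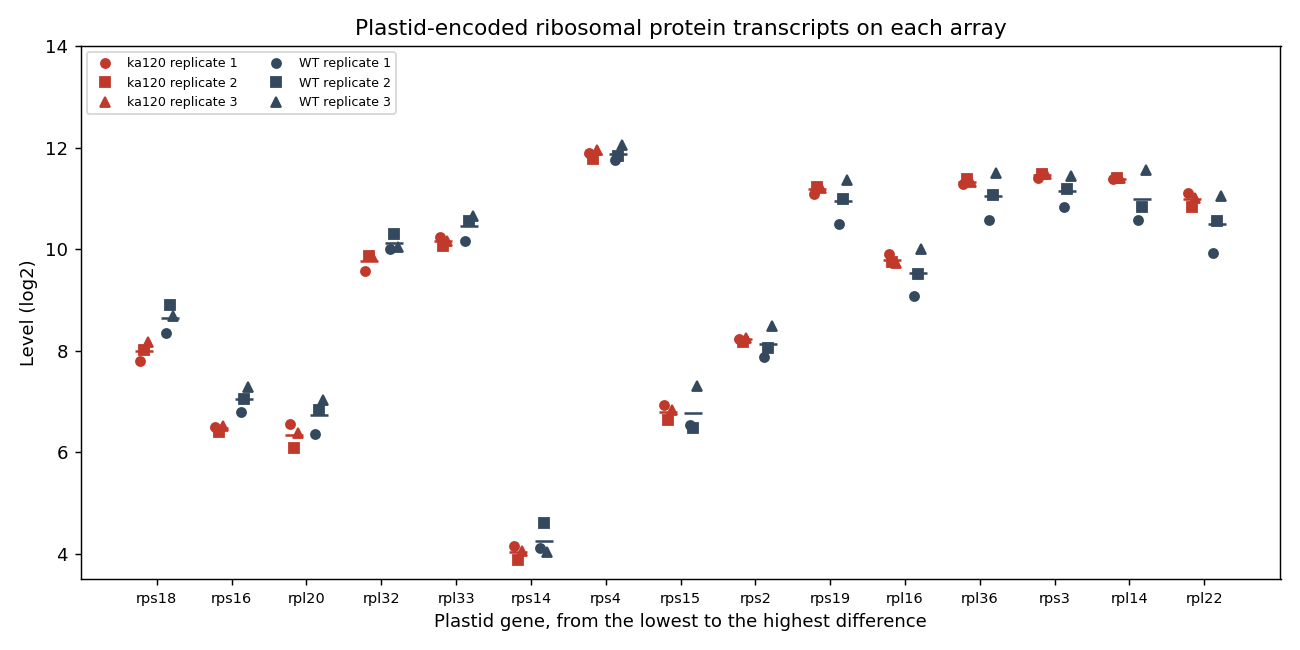
Log2 level of each of the 15 plastid-encoded ribosomal protein transcripts on each array, with ka120 (red) left of WT (dark), bars at the means of 3 arrays and symbols for the replicates, ordered by the difference between the genotypes. From rps19 rightward WT replicate 1 (circle) lies well below WT replicate 3 (triangle), while the ka120 arrays stay close together.

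Among the other 54 plastid genes with a probe set of their own, 26 fell and 0 rose (limma, adjusted p), with a median of -0.37. Shares over all genes tested were 15.5% lower and 17.5% higher. Among the 1190 bright genes, a set that takes in most of the 54, 36% were called lower. The caution on poly(A) tails holds for these plastid genes too. The 3 lowest were rbcL, for the large subunit of Rubisco, at -1.20, ycf4, for a photosystem I assembly factor, at -1.17, and psaC, for a photosystem I subunit, at -1.14. Over the alternatives between 18 and 35 of the 54 were called lower and between 0 and 4 higher. Their proteins are made by the plastid ribosome, and how their levels relate to those of the ribosomal protein genes was not tested.

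Most measured markers of photosynthetic leaf tissue fell as well, in a list chosen with earlier results of these data known. Of 11 listed mesophyll markers 5 were measured, each at percentile 99.4 or higher of all probe sets, and 4 of the 5 fell. RCA, the brightest of them, did not pass the test, at -0.09 (limma adjusted p = 0.506). The mean of these 5 lay between 11.76 and 11.79 in ka120 and between 12.20 and 12.32 in WT (log2). The 7 measured nuclear photosynthesis genes, which include these 5, had a median difference of -0.62, and 6 of them fell, with log2 differences of -1.54 for LHCB4.3, -0.82 for PSAN and -0.68 for LHCB4.2. Shares called lower were 15.5% over all genes tested and 36% among the 1190 bright genes, which take in all 7. Over the alternatives between 3 and 4 of the markers and between 4 and 6 of the photosynthesis genes were called lower, and 0 higher. Within each array the mean of the 8 ribosomal protein genes lay below that of the photosynthesis genes by -1.81, -1.84 and -1.79 in ka120 and by -2.02, -1.97 and -2.03 in WT. The distance was shorter on every ka120 array than on any WT array, a comparison of means over genes that was not tested. The part of leaf tissue makeup in the result was not tested, and in bulk leaf samples fewer cells of a type and less RNA per cell cannot be told apart.

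The 1 measured root marker, EXPA18, was dim, at 3.36, 3.36 and 3.01 in ka120 and 3.73, 3.57 and 3.35 in WT. The 1 measured guard cell marker, FMA, had 4.54, 4.58 and 4.80 in ka120 and 4.60, 4.65 and 4.79 in WT. Neither passed the test. EXPA18 was called lower after median centring (-0.43), with a replicate block (-0.31) and without WT replicate 3 (-0.40), and FMA was called higher with the level-dependent offset (0.40). No listed marker of dividing tissue, of senescence or of flowers and seeds was measured. Of 18 listed cytosolic ribosomal proteins 3 were measured and 1 rose, AT5G02870, for L4 of the large cytosolic subunit, by 0.44 on the log2 scale (limma adjusted p = 0.00231), while AT3G09630 and AT2G19730 gave 0.18 and 0.07 without passing. AT3G09630 was called higher under both control-based scalings (0.38 and 0.33). The probe set of KA120 itself had 3.65, 4.12 and 4.17 in ka120 and 4.55, 4.34 and 4.42 in WT, below all array medians (4.63 to 4.79), and is a weak check of the genotype. Its call (-0.45, limma adjusted p = 0.0222) was lost without ka120 replicate 1 (-0.29), without WT replicate 1 (-0.40) and under both control-based scalings (-0.25 and -0.02).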

How the data were processed

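The authors deposited log2 levels, 1 per probe set and array. Among tools, the submitters' processing notes list affy; its version and the handling of background, scaling and probe set summaries were not given in the sources used here. Titles gave each sample's genotype. Of 22810 probe sets, 64 array controls were left out. Genes came from the platform annotation, updated by gene identifier to the TAIR10.1 gene table: 13513 probe sets had 1 gene (13436 matched the table), 503 several and 8730 none. The brightest probe set stood for a gene.

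Differences were fitted over all 22746 probe sets with limma 3.58.1 in R 4.3.3 (lmFit, eBayes, no block, no filter), adjusted by Benjamini-Hochberg at 0.05. The fit was tested on simulated data. The number of arrays limits precision. The members and gene lists were chosen with earlier results of these data known; the plastid genome lists were added later. All measured members were named, with up to 3 called genes, or else the 1 largest, from each other list. All plastid-encoded ribosomal protein genes were also named. AT3G09630, AT2G19730, FUG1, RH39 and RCA were named outside this rule after their values were seen. Alternatives were 4 other scalings, removal of the dimmest 40% of probe sets, another variance prior, array weights, a replicate block, mean probe sets and each array left out. A planned count of promoter motifs was not run, as no sequences were used here.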

Additional observations from a re-analysis of the deposited data

How the results depend on the processing

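The 8 measured genes were compared over 15 alternatives, 120 comparisons in all: 105 kept direction and side of the threshold, 9 lost a call, 4 gained one and 2 changed sign. All 9 losses and both changes of sign came from the control-based scalings, in which noise of the controls is shared by all probe sets and raised the prior degrees of freedom from 6.65 to 14.75 and 41.79, so that their adjusted p-values are too small. Centring on hybridization controls left 1 gene lower (median -0.23), with 3968 genes higher and 1124 lower over all genes, and AT3G13120 at 0.0069. The level-dependent offset left 2 lower (median -0.16), with 9203 higher and 738 lower over all genes, and AT3G13120 at 0.035. Median centring gave 8 lower (median -0.55) and 3536 lower over all genes. These shifts follow from the offset each scaling adds. As deposited, 2331 genes were higher and 2064 lower, so that 53.0% of calls were higher, against 33.1% after median centring, 92.6% with the level-dependent offset and 77.9% with hybridization controls.

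With each array left out, 6 or 7 genes were lower, with a median between -0.51 (without WT replicate 3) and -0.36 (without WT replicate 1). With a replicate block 6 were lower and the median was -0.43. Arrays with the same number deviated from their group means with correlations of -0.01, -0.19 and 0.13, against -0.28 to 0.26 for other pairs across genotypes, so the numbers were not taken to pair the samples. AT4G01310 also passed with an intensity trend and robust prior (limma adjusted p = 0.0244) and after median centring, as AT3G13120 did. Beside these and the fit without WT replicate 3, AT4G01310 passed under no other alternative.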
